A study of Mus musculus with 4 samples.

Results

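Hair germ cells of embryonic mouse skin were taken here as the keratinocytes in which Shh, Wif1 and Lhx2 outweighed the genes of neighbouring follicle stages. Members were chosen by measured values. Barcodes were kept that showed 2000 genes or more and less than 10% of UMIs from mitochondrial genes, where a UMI is a molecular tag that counts each captured RNA molecule once. Such a cell needed at least 10 UMIs per 10000 from Krt5, Krt14, Krt15 and Krt17 together, and under 20 per 10000 from Krt1 and Krt10. Among these gated keratinocytes, a germ cell had at least 2 UMIs per 10000 from Shh, Wif1 and Lhx2. That sum also had to exceed both the sum of the placode genes Dkk4, Fgf20 and Sp5 and the sum of the peg genes Pthlh, Tafa1 and Krt79. The rule kept 828 cells of 7471 gated keratinocytes and of 11221 cells in all that passed the first limits. The same sums gave 400 placode cells and 400 peg cells, and 4503 gated cells without a UMI of the 9 follicle genes, called interfollicular here, served for comparison.

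Single-cell RNA-seq had been done on dorsal skin epithelium sorted for Epcam and α6 integrin, 1 embryo per library and 2 libraries per genotype. Ctrl embryos carried floxed Suv39h1 and Setdb1 alleles, lacked Suv39h2 (Suv39h2-/-) and had no K14CreERT2. TKO (triple knockout) embryos carried the same alleles with K14CreERT2, and tamoxifen was given to both genotypes. The Suv39h2-/- genotype was thus shared by all 4 libraries, although reads of the gene were counted in each, and all 3 targeted genes code for methyltransferases of lysine 9 on histone H3, whose trimethylated form marks silent chromatin. Cre was driven by the keratin 14 promoter of basal keratinocytes, so recombination is limited to that lineage, and the study describes the TKO embryos sequenced here as mosaic. The TKO sums thus mix recombined and possibly unrecombined cells, which were not told apart. The labels give E16.5 as the age, whereas the study's litter list gives a day earlier for these animals.

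The hair germ forms when a placode of the epidermis grows down towards a cluster of dermal cells. Shh, a secreted ligand made by the epithelial bud, drives its proliferation and acts on the dermal cells. Wif1 is a secreted inhibitor of Wnt ligands, and Lhx2 is a transcription factor of follicle progenitors. Dkk4 and Fgf20 mark the earlier placode, and Pthlh the later, elongating peg.

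The germ gate held 223 and 327 cells in Ctrl replicates 1 and 2, and 79 and 199 cells in TKO replicates 1 and 2. These cells carried 6759035 and 7335740 UMIs in Ctrl and 2746865 and 5800167 UMIs in TKO. TKO replicate 1 thus gave the fewest cells and the shallowest sum. The median germ cell had 24638 and 17250 UMIs in Ctrl and 27347 and 24449 UMIs in TKO. Across the 4 matrices 39 barcodes occurred in more than 1 library, 1 of them in a germ cell. A few germ cells carried RNA of other cell types, defined by at least 10 UMIs per 10000 of Col1a1 and Col3a1 for fibroblasts or of a few immune, melanocyte or endothelial markers, or by at least 3 Merkel cell markers. Leaving these cells out lowers the markers that define them by construction. There were 6 and 5 such cells in Ctrl and 5 and 8 in TKO, and values without them are given beside the results named below that they moved.

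The gate's label was read against Tll1 and Frem1, markers that the rule had not used. They came with the label and were chosen with earlier results of these libraries known, so they are no independent check of it. Tll1, a protease of the extracellular matrix, had 288 and 255 CPM in Ctrl and 299 and 229 CPM in TKO (counts per 1000000 UMIs of the summed cells) in germ cells, against 85.6 to 150.5 in placode cells and 36.3 to 99.5 in peg cells over the 4 libraries. Frem1, a basement membrane protein, had 199 and 159 CPM in Ctrl and 276 and 191 CPM in TKO in germ cells and 59 to 84.9 in placode cells. In interfollicular cells Tll1 ranged from 0.685 to 1.64 and Frem1 from 0.712 to 1.79 CPM. Both markers were thus highest in the germ gate in every library, in Ctrl and TKO alike. These are descriptions of gated cells and carry no test.

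**Figure D1:**
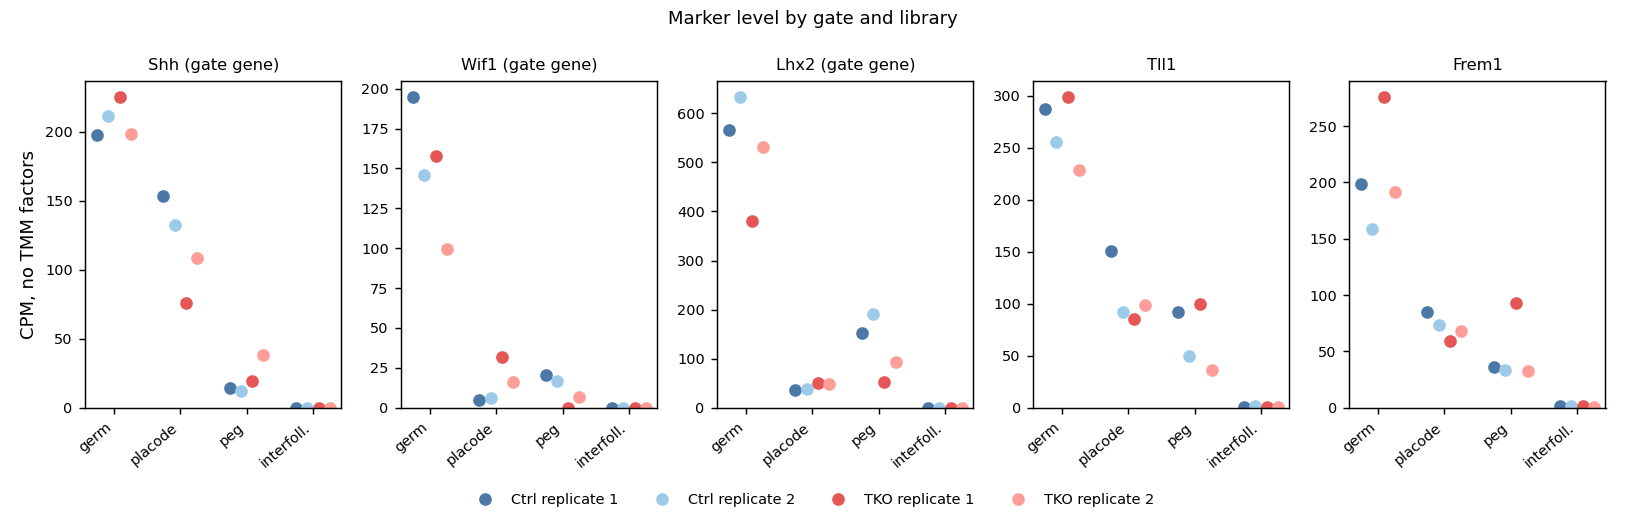
CPM summed over the cells of each gate (x axis: germ, placode, peg and interfollicular) for Shh, Wif1, Lhx2, Tll1 and Frem1, with 1 point per library. Shh, Wif1 and Lhx2 chose the cells, whereas Tll1 and Frem1 did not, and both of the latter are highest in the germ gate in all 4 libraries.

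The genes that defined the gate are given as levels only. Shh had 198 and 211 CPM in Ctrl and 222 and 202 CPM in TKO, and Lhx2 had 567 and 633 CPM in Ctrl and 375 and 541 CPM in TKO, where CPM are scaled by TMM factors, here and in the tests below. Wif1 had 195 and 146 CPM in Ctrl and 156 and 101 CPM in TKO, and its groups overlapped. Among germ cells 145 and 189 in Ctrl and 58 and 147 in TKO had a UMI of Shh. A UMI of all 3 genes was found in 106 and 136 Ctrl cells and in 50 and 94 TKO cells. Lhx2 was lower and Shh similar in the TKO sums. Of the 3 placode genes, Dkk4 (26.8 and 27.9 CPM in Ctrl and 81.8 and 61.3 CPM in TKO) and Sp5 (35.5 and 39.9 CPM in Ctrl and 80.4 and 94.1 CPM in TKO) stood higher in TKO germ cells. Fgf20 did not, with 21.3 and 28.3 CPM in Ctrl and 32.3 and 17.3 CPM in TKO. Of the 3 peg genes, Pthlh (41.1 and 54.6 CPM in Ctrl and 30.5 and 21.5 CPM in TKO) and Krt79 (13 and 15.8 CPM in Ctrl and 0 and 4.38 CPM in TKO) stood lower, and Tafa1 did not, with 45.9 and 40.8 CPM in Ctrl and 46.6 and 42.9 CPM in TKO. The rule itself held both sets below Shh, Wif1 and Lhx2. Krt15, a keratin of basal and follicle progenitor cells that the gate also used, had 1576 and 1769 CPM in Ctrl and 811 and 823 CPM in TKO.

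Germ cells made up 10.9% and 12.7% of gated keratinocytes in Ctrl, and 5.65% and 13.6% in TKO. The TKO libraries stood on either side of both Ctrl libraries, so the groups overlapped. The means were 11.8% ± 1.26 in Ctrl and 9.62% ± 5.61 in TKO (SD, n = 2), a difference of -2.22 percentage points (exact two-sided permutation test, p = 1). As a share of follicle cells, that is germ, placode and peg cells together, germ cells were 53.3% and 49.5% in Ctrl and 39.5% and 57.0% in TKO (difference -3.15 percentage points, exact permutation p = 1). With 2 libraries per genotype this exact permutation test cannot go below p = 0.3333. Without TKO replicate 1 both differences changed sign, to 1.75 and 5.61 percentage points. Placode cells numbered 67 and 105 in Ctrl and 103 and 125 in TKO, and of the 400 peg cells 18 and 25 were from TKO.

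The targeted genes were read first in the germ cell sums. Setdb1 (ENSMUSG00000015697.15, GRCm39 chromosome 3, 95229399 to 95264541) had 83.2 and 60.3 CPM in Ctrl and 39.5 and 48.7 CPM in TKO (log2 change -0.68, SE 0.19, edgeR adjusted p 0.104). Suv39h1 (ENSMUSG00000039231.19, chromosome X, 7927403 to 7940999) had 30.8 and 29.4 CPM in Ctrl and 23.3 and 24.7 CPM in TKO (log2 change -0.32, SE 0.15, edgeR adjusted p 0.328). Suv39h2 (ENSMUSG00000026646.17, chromosome 2, 3455774 to 3476146), labelled -/- in both genotypes, had 18.5 and 22.5 CPM in Ctrl and 25.5 and 22.1 CPM in TKO (log2 change 0.20). None of the 3 was called, although Setdb1 and Suv39h1 were lower in both TKO libraries than in both Ctrl libraries. Setdb1 was called with cells thinned to 5000 UMIs (log2 change -1.21, edgeR adjusted p 0.0320), without Ctrl replicate 2 (-0.90, adjusted p 0.00556) and with no expression filter (-0.70, adjusted p 0.00029). A 3' tag outside the deleted part of a gene does not read the deletion, and where the tags lie relative to the altered parts of the 3 alleles was not examined, so these counts do not check the genotypes.

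Of 14081 genes tested in germ cells, 331 were raised in TKO (2.35%) and 224 were lowered (1.59%), 3.94% in all, by edgeR's quasi-likelihood test at an adjusted p under 0.05. DESeq2 called 324 raised and 232 lowered. The median log2 change of all tested genes was -0.01. Raised genes were led by transcripts hardly found in Ctrl germ cells. Genes of meiosis and of the germline, long noncoding transcripts, glutamate receptor subunits and the cytokine gene Ltb were among them. Lowered genes included the transcription factor genes Creb5, Sox9 and Irx1, the collagens Col7a1 and Col4a6, the matrix protease Adamts9 and the signalling ligands Bmp4, Wnt4 and Wnt5a. Without the 24 cells that carried RNA of other types, 299 genes were raised and 274 lowered of 13729 (4.17% in all), and 473 of the 555 calls were shared.

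Germline and meiosis genes were chosen as a list of 34, of which 6 passed the expression filter. A gene silent in Ctrl could pass that filter only through TKO, so the filter itself favoured a rise among the 6, and the 4 that rose are given as a description of these genes and not of the list. Tcfl5 encodes a transcription factor of meiotic male germ cells. Tcfl5 (ENSMUSG00000038932.14, GRCm39 chromosome 2, 180263529 to 180284556) had 0.888 and 1.36 CPM in Ctrl and 23.7 and 33.3 CPM in TKO (log2 change 4.65, SE 0.33, edgeR adjusted p 0.00129). Stag3, the cohesin subunit of meiotic chromosomes, had 1.04 and 0.272 CPM in Ctrl and 15.8 and 15.2 CPM in TKO (log2 change 4.55, SE 0.45, edgeR adjusted p 0.00412). Both TKO libraries lay far above both Ctrl libraries for each gene, and the groups did not overlap. Piwil1, a protein that binds piRNAs in the testis, had 0.592 and 0.408 CPM in Ctrl and 8.61 and 6.31 CPM in TKO (log2 change 3.82, SE 0.47, edgeR adjusted p 0.00792). Tdrd1, a Tudor protein of the same pathway, had 1.04 and 0.68 CPM in Ctrl and 4.66 and 12.1 CPM in TKO (log2 change 3.35, SE 0.56, edgeR adjusted p 0.0239). Tex15 had 10.2 and 10.5 CPM in Ctrl and 30.5 and 18 CPM in TKO and was not called (adjusted p 0.0644), and Tex14 had 9.03 and 6.53 CPM in Ctrl and 7.53 and 6.13 CPM in TKO. The call of Tdrd1 did not hold with 1 library fewer (log2 change and edgeR adjusted p of 2.42 and 0.102 without TKO replicate 2).

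These 4 genes rose together, so the 250 bases upstream of their RefSeq starts (GRCm38.p6) are shown, written 5′ to 3′ on the gene's strand. Capitals mark the letters CACGTG, an E-box that reads alike on both strands. The letters TTCCCGC, an E2F-type motif, were searched on both strands too and found in none of the 4. Tdrd1 had 3 starts in the table, and the most upstream is shown; the next window held CACGTG and 22 CG dinucleotides, and the last held no CACGTG and 3 CG.
Tcfl5 (chr2:180642692-180642941, - strand): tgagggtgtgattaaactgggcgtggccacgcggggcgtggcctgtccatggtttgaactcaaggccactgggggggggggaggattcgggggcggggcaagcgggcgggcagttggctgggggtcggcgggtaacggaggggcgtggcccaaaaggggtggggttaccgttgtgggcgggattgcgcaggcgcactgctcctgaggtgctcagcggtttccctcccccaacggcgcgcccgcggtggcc
Piwil1 (chr5:128735996-128736245, + strand): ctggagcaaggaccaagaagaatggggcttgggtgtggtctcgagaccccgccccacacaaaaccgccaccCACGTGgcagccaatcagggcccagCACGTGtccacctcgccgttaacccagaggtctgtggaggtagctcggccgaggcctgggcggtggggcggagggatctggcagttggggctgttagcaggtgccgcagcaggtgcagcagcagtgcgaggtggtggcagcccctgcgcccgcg
Stag3 (chr5:138280259-138280508, + strand): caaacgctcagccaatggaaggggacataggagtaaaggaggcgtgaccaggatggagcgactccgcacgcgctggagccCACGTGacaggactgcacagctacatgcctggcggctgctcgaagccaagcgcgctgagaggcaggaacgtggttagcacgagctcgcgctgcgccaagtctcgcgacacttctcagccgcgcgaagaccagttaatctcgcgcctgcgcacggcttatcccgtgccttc
Tdrd1 (chr19:56825959-56826208, + strand): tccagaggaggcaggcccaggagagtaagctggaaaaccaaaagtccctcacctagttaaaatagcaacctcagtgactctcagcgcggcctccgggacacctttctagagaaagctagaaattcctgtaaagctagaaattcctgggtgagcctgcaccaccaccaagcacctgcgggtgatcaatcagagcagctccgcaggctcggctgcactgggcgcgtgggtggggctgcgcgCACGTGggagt
CACGTG occurred in 3 of the 4 windows shown, 2 times in that of Piwil1, and in 6.02% of the 32851 upstream windows of all genes in the table. TTCCCGC was held by 3.82% of them. The CG dinucleotides numbered 22 in the Tcfl5 window, 16 in that of Piwil1, 26 in that of Stag3 and 11 in that of Tdrd1, against a median of 6 over all windows. A match of letters is a description and not a binding site.

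Several transcripts were not found at all in Ctrl germ cells. Npffr1 (ENSMUSG00000020090.8, GRCm39 chromosome 10, 61430652 to 61464344), a neuropeptide receptor gene, had 0 UMIs in both Ctrl libraries and 39 and 46 UMIs in TKO. Against a floor of 3 UMIs per Ctrl library it was at least 25.9-fold higher (edgeR adjusted p 0.00618). Gm11884, a long noncoding RNA of chromosome 4, had 0 UMIs in Ctrl and 42 and 164 in TKO, at least 51.1-fold higher (edgeR adjusted p 0.00412). The noncoding 1700030N03Rik had 0 UMIs in Ctrl and 49 and 52 in TKO, at least 31.4-fold higher (edgeR adjusted p 0.00652). Gm42653, a predicted transcript (chromosome 5, 70718608 to 70721446), had 1.04 and 1.5 CPM in Ctrl and 173 and 173 CPM in TKO (log2 change 7.06, SE 0.19, edgeR adjusted p 1.19e-05), the smallest adjusted p of all tested genes. Its 2 TKO values lay closer together than those of the other transcripts named here. These transcripts belong to a list of 10 probe genes chosen with earlier results of these libraries known, so their direction is not independent evidence. The same holds for Tdrd1 above and Gria3 below, which are on that list. Of the 10 probes, 6 were tested and 6 rose, and those silent in Ctrl could likewise pass the filter only through TKO.

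The share of TKO germ cells in which a probe transcript was seen moved with depth, so a cell without one is not shown to lack it. At full depth and without cells carrying RNA of other types, 58 cells of TKO replicate 1 and 160 of TKO replicate 2 had a UMI of the probe genes, and 16 and 31 had none. After each cell was thinned to 5000 UMIs, at least 1 of the 10 probe genes was found in 57.0% of 79 cells of TKO replicate 1 (95% Clopper-Pearson interval 45.3 to 68.1%). In TKO replicate 2 it was 55.1% of 198 cells (47.8 to 62.1%). In Ctrl germ cells the share was 3.59% of 223 and 4.64% of 323, which gives the background. At least 2 probe genes were found in 16.46% and 11.6% of TKO germ cells, against 38.3% and 38.4% of TKO interfollicular cells, and in 0 Ctrl germ cells. A count of 0, taken as at most 3 cells, allows a share of up to 1.35% of the 223 and 0.929% of the 323 cells, and the upper Clopper-Pearson limits are 1.64% and 1.14%. In each TKO library the germ share with at least 2 probe genes thus lay below the interfollicular share, and the 2 intervals did not overlap. It was not apart from that of the other follicle gates: placode cells had 23.3% (15.5 to 32.7%) and 14.5% (8.84 to 22.0%), which overlapped the germ intervals of 9.06 to 26.5% and 7.51 to 16.9%, and in peg cells it was 6 of 18 and 5 of 25. Intervals cover counting error only. With at least 3 probe genes the TKO germ shares were 1.27% and 3.03%. In peg cells it was 5 of 18 and 2 of 25. For TKO replicate 1 the germ and peg intervals did not overlap (0.032 to 6.85% and 9.69 to 53.5%). For TKO replicate 2 they did (1.12 to 6.48% and 0.984 to 26.0%). The placode intervals (3.41 to 14.7% and 1.32 to 9.16%) overlapped those of germ cells. Gm42653 alone had a UMI in 45.6% and 44.4% of TKO germ cells and in 0.897% and 0.929% of Ctrl germ cells. For Tcfl5 the shares were 11.4% and 11.6% in TKO, and 0% and 1.24% in Ctrl.

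**Figure D2:**
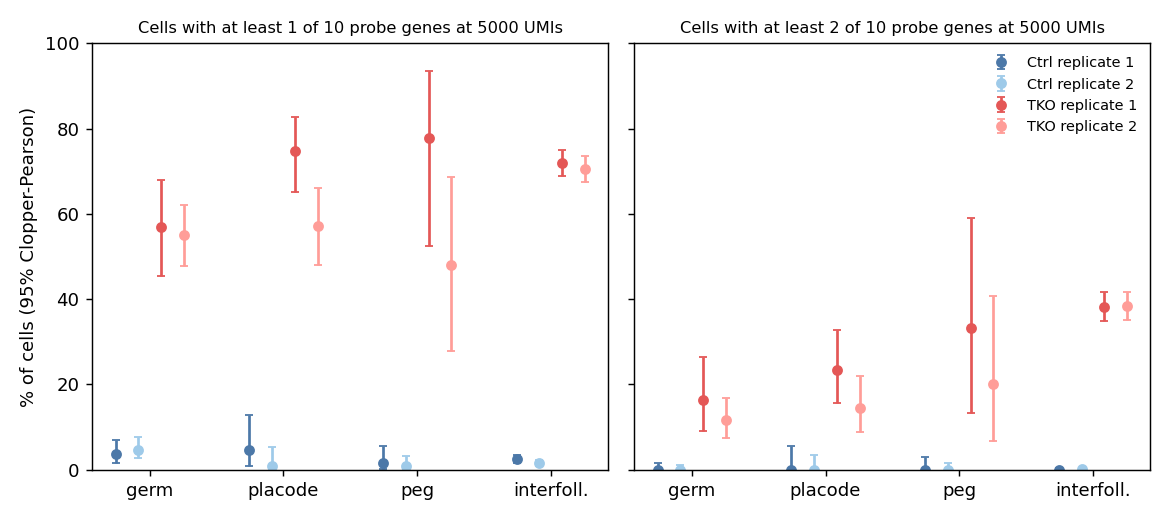
Share of cells (y axis, %) with at least 1 (left) or at least 2 (right) of the 10 probe genes after thinning to 5000 UMIs, by gate and library, with 95% Clopper-Pearson intervals. At least 2 probe genes were found in 16.46% and 11.6% of TKO germ cells and in 38.3% and 38.4% of TKO interfollicular cells.

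Other raised genes encode receptors, surface proteins and enzymes. Grik1, a kainate-type glutamate receptor subunit, had 8.29 and 2.72 CPM in Ctrl and 62.1 and 41.7 CPM in TKO (log2 change 3.23, SE 0.41, edgeR adjusted p 0.00939). Gria3, an AMPA-type subunit, had 5.03 and 5.44 CPM in Ctrl and 49.2 and 18 CPM in TKO (log2 change 2.61, SE 0.47, edgeR adjusted p 0.0287). Fut9, a fucosyltransferase, had 2.96 and 2.45 CPM in Ctrl and 33.4 and 25.9 CPM in TKO (log2 change 3.43, SE 0.26, edgeR adjusted p 0.00144). Each of the 3 was higher in both TKO libraries than in either Ctrl library. Kyat3, an aminotransferase, had 23.8 and 24.9 CPM in Ctrl and 114 and 150.0 CPM in TKO (log2 change 2.45, SE 0.16, edgeR adjusted p 0.00105), and Ly6e, a membrane-anchored surface protein, had 25.7 and 29.3 CPM in Ctrl and 194 and 140.1 CPM in TKO (log2 change 2.59, SE 0.18, edgeR adjusted p 0.00129). Col19a1, a collagen, had 1.78 and 2.18 CPM in Ctrl and 12.6 and 11 CPM in TKO (log2 change 2.55, SE 0.31, edgeR adjusted p 0.00798). H2-Eb1, an MHC class II chain, had 1.04 and 0.544 CPM in Ctrl and 26.9 and 9.81 CPM in TKO (log2 change 4.44, SE 0.63, edgeR adjusted p 0.0132). The change of H2-Eb1 was 4.60 without cells carrying RNA of other types (edgeR adjusted p 0.00971), and Cd74, its invariant chain, had 14.7 and 17.6 CPM in Ctrl and 37.3 and 24.9 CPM in TKO (adjusted p 0.0844). With cells carrying 2 markers of another type left out, H2-Eb1 was not called (log2 change 4.38, edgeR adjusted p 0.108). At 5000 UMIs, 7 of 79 and 8 of 198 TKO germ cells had a UMI of it. A lone cell held 26.7% of its UMIs in TKO replicate 1 and 32.1% in TKO replicate 2.

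Some of the raised genes of largest fold were called only with the few cells that carried RNA of other types, fibroblast RNA among them. Col1a1 had 19.98 and 34.2 CPM in Ctrl and 222 and 236 CPM in TKO (log2 change 3.08, SE 0.23, edgeR adjusted p 0.00144), but a log2 change of 0.35 without those cells. Col3a1 went from 2.84 to -0.04. Of the Col1a1 and Col3a1 UMIs in germ cells, 273 of 297 and 448 of 499 in Ctrl, and 1190 of 1213 and 2485 of 2509 in TKO, lay in 2, 1, 4 and 7 cells. Among the 12 named genes with the largest rise, Il1rapl2 (log2 change 5.11), Ncam2 (5.08), Ly6a (4.87), Fibin (4.82), C1qtnf3 (4.60), Lox (3.67), Tnfaip6 (3.59) and Clec3b (3.48) no longer passed the expression filter once the cells with RNA of other types were left out. The other 4, Npffr1, Tcfl5, Stag3 and H2-Eb1, were still called. In which cells the UMIs of the genes that failed the filter lay was not counted. Cdkn1c, a cell cycle inhibitor, went from 1.28 (edgeR adjusted p 0.0419) to 0.20 (adjusted p 0.693), and the Wnt inhibitor Sfrp2 from 1.78 to 0.01. C1qtnf3 lost its call with 1 library left out, at a log2 change and an edgeR adjusted p of 2.92 and 0.196 without TKO replicate 2. Over the 8 fibroblast markers, the summed level was 1521 to 1855 CPM in Ctrl and 2479 to 2515 in TKO, with 7 of 8 markers higher in both TKO libraries. Most of the Ctrl sum was Dcn, at 1719 and 1347 CPM in Ctrl and 1812 and 1783 CPM in TKO in germ cells and 3032 and 3256 CPM in Ctrl placode cells. The other 7 markers summed to 136 and 175 CPM in Ctrl and 704 and 696 in TKO, and without the cells with RNA of other types to 65.9 and 84.1 in Ctrl and 32.2 and 27.8 in TKO.

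The same held for Merkel cell genes among the lowered. The Ctrl germ sums held 246 and 369 UMIs of Ccer2 and the TKO sums held 0, at least 53.9-fold lower, and 243 and 365 of those UMIs lay in 2 and 3 cells with Merkel cell markers. Atoh1, the Merkel cell transcription factor (at least 3.33-fold lower in TKO, which held none of its UMIs against 15 and 23 for Ctrl), and Krt8, a keratin of simple epithelia (log2 change -5.69), were called too, and neither passed the filter without these cells. Atoh1 and Krt8 lost their calls with 1 library left out. The log2 change and edgeR adjusted p of Atoh1 were -6.93 and 0.0869 without TKO replicate 2. Those of Krt8 were -4.26 and 0.121 without TKO replicate 2. That log2 change of Atoh1 depends on the prior count and is no bound. The 8 Merkel markers summed to 67.3 and 105 CPM in Ctrl and 14.2 and 24.5 in TKO, and to 23.3 and 29.0 against 10.6 and 17.1 without those cells. Immune markers summed to 57.8 and 36.0 in Ctrl and 130 and 52.6 in TKO, and without those cells to 17.1 and 20.4 in Ctrl and 44.3 and 43.5 in TKO, so they stayed higher in TKO beside the rise of H2-Eb1; their part in it was not tested. Melanocyte markers summed to 29.9 and 29.3 in Ctrl and 13.5 and 19.8 in TKO, with Tyrp1 and Sox10 at 0, and endothelial markers to 17.2 to 21.5 in all libraries. Erythroid markers summed to 13.6 and 1435 in Ctrl and 10.6 and 629 in TKO, so they split the libraries by replicate and not by genotype. Without those cells they were 13.6 and 20.2 in Ctrl and 10.6 and 47.97 in TKO.

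**Figure D3:**
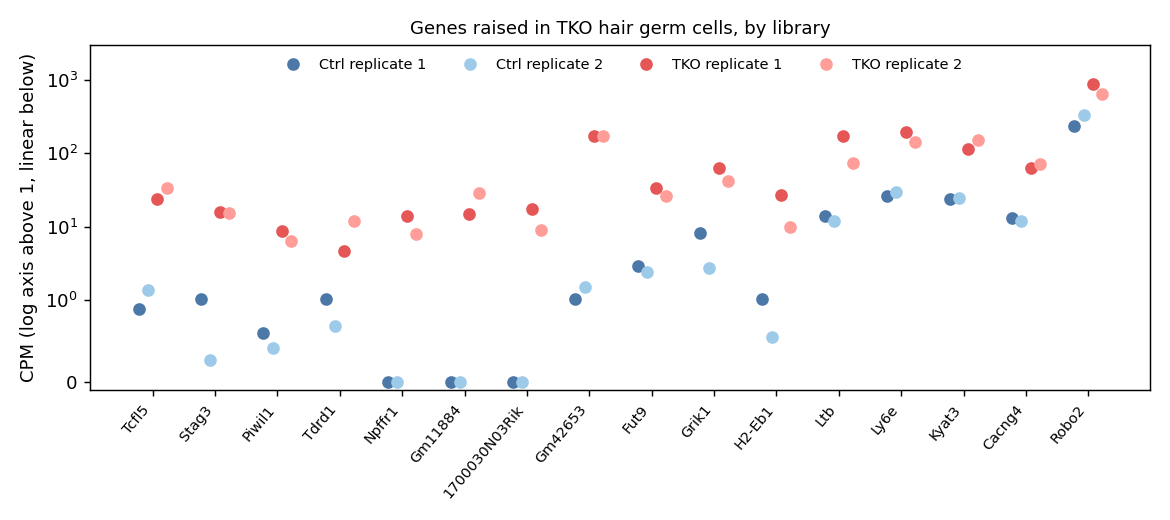
CPM in germ cell sums (y axis, logarithmic above 1 and linear below) of 16 raised genes, with 1 point per library. For each gene both TKO points lie above both Ctrl points, and Npffr1, Gm11884 and 1700030N03Rik are at 0 in both Ctrl libraries.

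Of 32 transcription factor genes of the hair follicle tested, 7 were lowered and 1 raised, where 1.59% of all genes were lowered and 2.35% raised. Their median log2 change was -0.51 against -0.01 over all genes. With cells carrying RNA of other types left out, 9 were lowered, with Vdr and Tbx1 added. Sox9, which marks the precursors of hair follicle stem cells, had 158 and 205 CPM in Ctrl and 57.4 and 78.3 CPM in TKO (log2 change -1.40, SE 0.19, edgeR adjusted p 0.0107). Irx1, an Iroquois homeobox gene, had 81.2 and 93.1 CPM in Ctrl and 22.6 and 38.7 CPM in TKO (log2 change -1.46, SE 0.22, edgeR adjusted p 0.0166), and Sox21, a regulator of hair shaft differentiation, had 92.2 and 109 CPM in Ctrl and 47.4 and 50.6 CPM in TKO (log2 change -1.04, SE 0.13, edgeR adjusted p 0.00989). No TKO library reached the Ctrl range for these 3. Eya2 (-1.12 ± 0.15 log2, SE), Prdm1 (-0.90 ± 0.14), Runx1 (-0.70 ± 0.12) and Irx2 (-0.51 ± 0.10) were lowered as well. Runx2 was the only raised member, at 67.3 and 67.8 CPM in Ctrl and 123 and 118 CPM in TKO (log2 change 0.84, SE 0.11, edgeR adjusted p 0.0101). Several of these genes also differ between follicle stages. In Ctrl, Sox9 had 343 and 434 CPM in peg and 11.2 and 38.1 in placode cells, and Runx1 had 709 and 846 in peg and 24.3 and 23.1 in placode cells. Runx2 went the other way, with 15.9 and 18.6 CPM in peg and 176 and 220 in placode cells of Ctrl. Whether the gate drew the same mix of stages in both genotypes was not tested. The 2 members of highest level that were not called were Nfib (-0.24 ± 0.10) and Trps1 (-0.09 ± 0.09). Tbx1 had 35.4 and 35.9 CPM in Ctrl and 0.359 and 11.4 CPM in TKO; it was not called in all germ cells (adjusted p 0.0844) and was called without cells of other types (log2 change -2.41, edgeR adjusted p 0.0443). Irx2 lost its call with 1 library left out, at a log2 change and an edgeR adjusted p of -0.44 and 0.151 without Ctrl replicate 2, -0.52 and 0.0683 without TKO replicate 1, -0.49 and 0.0724 without TKO replicate 2.

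Creb5, a CREB family transcription factor, had 429 and 425 CPM in Ctrl and 76.8 and 107 CPM in TKO (log2 change -2.20, SE 0.16, edgeR adjusted p 0.00137). Adamts9, a matrix metalloprotease, had 121 and 139 CPM in Ctrl and 8.97 and 31 CPM in TKO (log2 change -2.58, SE 0.38, edgeR adjusted p 0.0162). The noncoding 9530026P05Rik, whose annotated span overlaps that of Adamts9 on the other strand, had 96.9 and 100.3 CPM in Ctrl and 13.3 and 15.4 CPM in TKO (log2 change -2.76, SE 0.14, edgeR adjusted p 0.000486). How the counting used strand was not given in the sources used here, so reads of this pair may be split between them. Ank, a pyrophosphate transporter, had 88.8 and 103 CPM in Ctrl and 7.18 and 22.1 CPM in TKO (log2 change -2.57, SE 0.34, edgeR adjusted p 0.0107), and Slc24a3, a sodium, potassium and calcium exchanger, had 39.2 and 40.01 CPM in Ctrl and 2.87 and 10.2 CPM in TKO (log2 change -2.42, SE 0.36, edgeR adjusted p 0.0153). For each of these the lowest Ctrl library was several fold above the highest TKO library. Npas2, a circadian transcription factor (-2.52), Phactr3 (-2.47), Fmo2, a flavin monooxygenase (-3.75), Sytl4 (-3.28), Grm4, a metabotropic glutamate receptor (-2.94), Ajap1 (-2.37), Gabrg3 (-2.33) and the noncoding Gm17056 (-2.73) were lowered too. Without the cells that carried RNA of other types, Kif26b (log2 change -3.56, edgeR adjusted p 0.00595) and Elmod1 (-2.77, adjusted p 0.0369) were called as well; with them they were not (adjusted p 0.154 and 0.0519). The call of Gm17056 did not hold with 1 library fewer (log2 change and edgeR adjusted p of -2.50 and 0.0502 without TKO replicate 1, -3.27 and 0.0502 without TKO replicate 2).

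**Figure D4:**
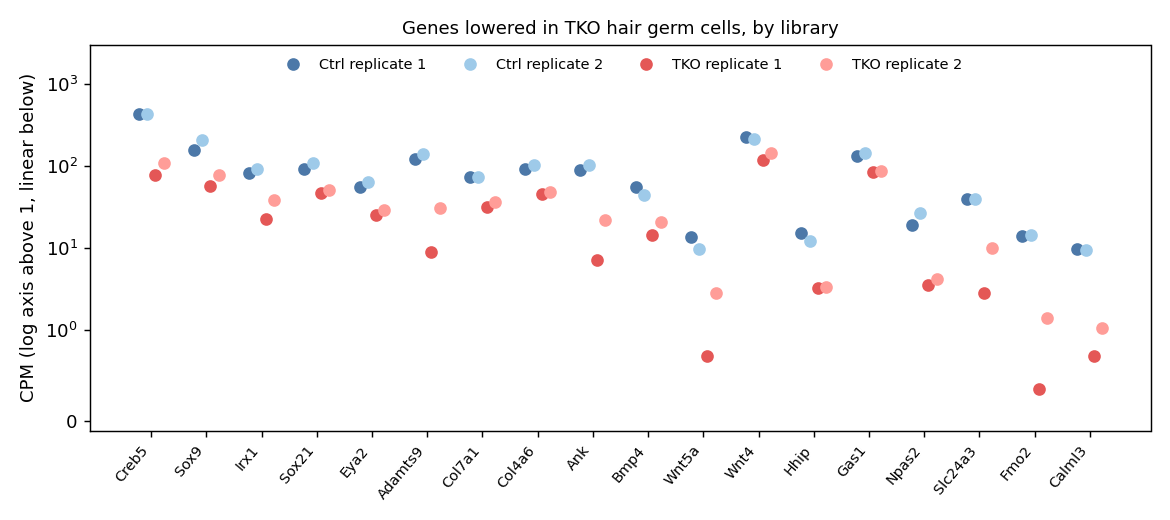
CPM in germ cell sums (y axis, logarithmic above 1 and linear below) of 18 lowered genes, with 1 point per library. Both TKO points lie below both Ctrl points for each gene, with Creb5 at 429 and 425 CPM in Ctrl and 76.8 and 107 CPM in TKO.

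Of 19 Hedgehog pathway genes tested, 2 were lowered and 0 raised (median log2 change -0.07), against 1.59% lowered and 2.35% raised of all genes. With cells carrying RNA of other types left out, 3 were lowered, Boc among them. Hhip, a membrane protein that binds Hedgehog ligands and is itself a target of the pathway, had 15.1 and 12.1 CPM in Ctrl and 3.23 and 3.33 CPM in TKO (log2 change -2.04, SE 0.29, edgeR adjusted p 0.013). Gas1, a co-receptor for Shh, had 134 and 144 CPM in Ctrl and 84 and 86 CPM in TKO (log2 change -0.71, SE 0.11, edgeR adjusted p 0.0195). Both genes had all TKO values below all Ctrl values. The receptor gene Ptch1, another target of the pathway, did not pass the test, at 893 and 761 CPM in Ctrl and 680.3 and 748 CPM in TKO (log2 change -0.21, SE 0.11, edgeR adjusted p 0.395).

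Of 45 Wnt pathway genes tested, 5 were raised and 3 lowered (median log2 change 0.03), against 2.35% and 1.59% of all genes. Without the cells that carried RNA of other types the counts were 4 and 4. The ligand gene Wnt3 had 68.5 and 68.6 CPM in Ctrl and 114 and 109 CPM in TKO (log2 change 0.70, SE 0.11, edgeR adjusted p 0.0188) and Wnt10a had 19.98 and 27.1 CPM in Ctrl and 43.4 and 43.8 CPM in TKO (log2 change 0.89, SE 0.18, edgeR adjusted p 0.0395). Dkk3, of the Dickkopf family, had 20.6 and 21.1 CPM in Ctrl and 33 and 35.6 CPM in TKO, and Kremen2, a receptor for Dickkopf proteins, had 104 and 97.3 CPM in Ctrl and 161 and 139 CPM in TKO; both changes (0.72 and 0.57) had an edgeR adjusted p just under the threshold (0.0426 and 0.0487). Wnt4, another ligand gene, had 228 and 214 CPM in Ctrl and 119 and 142 CPM in TKO (log2 change -0.75, SE 0.12, edgeR adjusted p 0.023), and Wnt5a, a ligand of the non-canonical branch, had 13.8 and 9.8 CPM in Ctrl and 0.718 and 2.8 CPM in TKO (log2 change -2.51, SE 0.46, edgeR adjusted p 0.0303). Wnt ligand genes therefore moved in both directions. Lgr4, an R-spondin receptor, had 276 and 279.9 CPM in Ctrl and 194 and 198 CPM in TKO (log2 change -0.50, SE 0.10, edgeR adjusted p 0.0395). Ctnnb1, which encodes β-catenin, had a log2 change of 0.17 and the ubiquitin ligase gene Znrf3 -0.06, and neither was called. Sfrp2 was the other raised member, with a log2 change of 0.01 without the cells that carried RNA of other types. Lgr4, Dkk3, Kremen2 and Wnt10a lost their calls with 1 library left out. The log2 change and edgeR adjusted p of Lgr4 were -0.52 and 0.0597 without Ctrl replicate 1, -0.49 and 0.108 without Ctrl replicate 2, -0.48 and 0.086 without TKO replicate 1, -0.51 and 0.06 without TKO replicate 2. Those of Dkk3 were 0.70 and 0.0675 without Ctrl replicate 1, 0.74 and 0.089 without Ctrl replicate 2, 0.66 and 0.109 without TKO replicate 2. Those of Kremen2 were 0.52 and 0.12 without Ctrl replicate 2, 0.47 and 0.103 without TKO replicate 1. Those of Wnt10a were 0.88 and 0.0546 without TKO replicate 2.

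Among 17 Eda and NF-kB pathway genes tested, 2 were raised and 0 lowered (median 0.01), where all genes gave 2.35% and 1.59%. Ltb, which encodes lymphotoxin β, a cytokine made downstream of the Eda receptor in hair placodes, had 14.1 and 11.8 CPM in Ctrl and 172 and 73.4 CPM in TKO (log2 change 3.21, SE 0.39, edgeR adjusted p 0.00767). Both TKO libraries exceeded Ctrl, although they differed from each other. At 5000 UMIs per cell, 36.7% and 25.3% of TKO germ cells had a UMI of Ltb, against 6.73% and 5.57% in Ctrl. Eda2r, a receptor of the Eda family and also a p53 target gene, had 0.74 and 0.817 CPM in Ctrl and 5.38 and 4.91 CPM in TKO (log2 change 2.68, SE 0.43, edgeR adjusted p 0.0202). Edar itself had 428 and 333 CPM in Ctrl and 502 and 507 CPM in TKO (adjusted p 0.161), and Nfkbia, an inhibitor of NF-kB, had 503 and 967 CPM in Ctrl and 745 and 515 CPM in TKO (adjusted p 0.761). The call of Eda2r did not hold with 1 library fewer (log2 change and edgeR adjusted p of 2.75 and 0.0541 without TKO replicate 2).

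Of 33 BMP, FGF and TGF-beta genes tested, 1 was raised and 1 lowered (median -0.04), where 3.94% of all genes were called. Without cells carrying RNA of other types 2 were raised and 2 lowered, with Etv4 and Bambi added. Bmp4, a ligand gene, had 55.1 and 44.9 CPM in Ctrl and 14.4 and 21 CPM in TKO (log2 change -1.45, SE 0.20, edgeR adjusted p 0.0126). Etv5, a target of FGF signalling, had 39.8 and 31.3 CPM in Ctrl and 59.6 and 57.1 CPM in TKO (log2 change 0.71, SE 0.15, edgeR adjusted p 0.0476), which DESeq2 and several other alternatives did not call. Of 13 Notch pathway genes, 0 were called by edgeR or DESeq2, and 2 had an unadjusted edgeR p under 0.05. Over all genes 2463 of 14081 had such a p. Of 48 adhesion, matrix and cell shape genes, 3 were lowered and 1 raised (median -0.11), where 1.59% and 2.35% of all genes were. Slit2 was called as raised without cells carrying RNA of other types and not with them. Col7a1, the collagen of anchoring fibrils, had 72.7 and 73.6 CPM in Ctrl and 31.6 and 35.9 CPM in TKO (log2 change -1.10, SE 0.13, edgeR adjusted p 0.00622). Col4a6, of the basement membrane, had 91.5 and 102 CPM in Ctrl and 45.2 and 47.8 CPM in TKO (log2 change -1.05, SE 0.12, edgeR adjusted p 0.00704), and Celsr2, a planar polarity cadherin, had 58.9 and 60.2 CPM in Ctrl and 28.7 and 35.4 CPM in TKO (log2 change -0.87, SE 0.14, edgeR adjusted p 0.0216). All 3 stood at about the same level in both TKO libraries. Robo2, a receptor for Slit ligands, was raised, with 235 and 328 CPM in Ctrl and 871 and 642 CPM in TKO (log2 change 1.43, SE 0.19, edgeR adjusted p 0.0118). Calml3 was the lowered member of 13 spinous and barrier genes, at 9.77 and 9.39 CPM in Ctrl and 0.718 and 1.05 CPM in TKO (log2 change -3.33, SE 0.38, edgeR adjusted p 0.00657). Etv5 lost its call with 1 library left out, at a log2 change and an edgeR adjusted p of 0.55 and 0.171 without Ctrl replicate 2, 0.69 and 0.0687 without TKO replicate 1, 0.75 and 0.0537 without TKO replicate 2.

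Cell cycle genes are read against the 3.94% called of all genes. Of 52 genes of G2 and mitosis, 0 were called by edgeR or DESeq2 and 1 had an unadjusted edgeR p under 0.05 (median log2 change -0.05). Such a p was found for 2463 of all 14081 genes. Of 42 S phase genes, 2 were raised, Gmnn, an inhibitor of origin licensing (115 and 103 CPM in Ctrl and 160.0 and 159 CPM in TKO; log2 change 0.55, SE 0.11, edgeR adjusted p 0.0432), and Chaf1b, a histone chaperone subunit (24.3 and 27.1 CPM in Ctrl and 49.2 and 40.3 CPM in TKO; log2 change 0.78, SE 0.16, edgeR adjusted p 0.0402). Both calls were lost in several alternatives, and Tyms was called as raised too once cells carrying RNA of other types were left out. Cdkn2c, a CDK inhibitor gene, was lowered, with 8.29 and 9.53 CPM in Ctrl and 1.08 and 2.8 CPM in TKO (log2 change -2.03, SE 0.40, edgeR adjusted p 0.0395). Gmnn, Chaf1b and Cdkn2c lost their calls with 1 library left out. The log2 change and edgeR adjusted p of Gmnn were 0.47 and 0.171 without Ctrl replicate 2, 0.55 and 0.0633 without TKO replicate 1, 0.55 and 0.061 without TKO replicate 2. Those of Chaf1b were 0.66 and 0.0778 without TKO replicate 1. Those of Cdkn2c were -1.95 and 0.0519 without Ctrl replicate 2. At 5000 UMIs, 97.3% and 98.8% of Ctrl and 100% and 98.0% of TKO germ cells had at least 3 genes of G2 and mitosis. For S phase genes the shares were 97.3% and 96.3% in Ctrl and 97.5% and 92.9% in TKO. Nearly every cell passed, so the differences of 0.954 and -1.60 percentage points (exact permutation p = 0.6667 and p = 1) rest on a limit that hardly separated the cells. At the added limit of 10 genes the S phase shares were 49.8% and 45.8% in Ctrl and 62.0% and 56.6% in TKO, which did not overlap (exact permutation p = 0.3333, the smallest the design allows). For G2 and mitosis genes at that limit they were 58.7% and 46.7% in Ctrl and 65.8% and 58.1% in TKO, which overlapped (difference 9.20 percentage points, exact permutation p = 0.6667). At a limit of 5 genes the G2 and mitosis shares were 90.1% and 89.8% in Ctrl and 94.9% and 93.4% in TKO, which did not overlap (difference 4.23 percentage points, exact permutation p = 0.3333), and those of S phase genes differed by 0.750 percentage points (p = 1, exact permutation). Phase was not called from these shares.

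Of 26 p53 target genes tested, 3 were raised and 0 lowered (median 0.26), against 2.35% and 1.59% of all genes. Without cells carrying RNA of other types 5 were raised, with Zmat3 and Polk added. Ccng1, which encodes cyclin G1, had 14.9 and 18.6 CPM in Ctrl and 47.7 and 35.4 CPM in TKO (log2 change 1.28, SE 0.20, edgeR adjusted p 0.0196) and Plk2, a polo-like kinase, had 11.4 and 19.5 CPM in Ctrl and 41.3 and 34.5 CPM in TKO (log2 change 1.28, SE 0.25, edgeR adjusted p 0.0398). Cdkn1a, the p21 gene, had 25.3 and 46 CPM in Ctrl and 67.5 and 51 CPM in TKO and was not called (adjusted p 0.235). Of 14 interferon and antiviral genes, Bst2, which tethers budding virus, was raised (1.92 and 1.36 CPM in Ctrl and 9.33 and 24 CPM in TKO; log2 change 3.402, SE 0.50, edgeR adjusted p 0.0153). Cxcl10, a chemokine, was lowered (52.5 and 94.2 CPM in Ctrl and 29.8 and 27.2 CPM in TKO; log2 change -1.38, SE 0.27, edgeR adjusted p 0.0387). None of the 23 immediate early genes was called (0 by edgeR and 0 by DESeq2, 9 at an unadjusted edgeR p under 0.05; median -0.79), and their levels differed between libraries of 1 genotype, as with Jun at 1388 and 2440.3 CPM in Ctrl and 1592 and 788 CPM in TKO. An unadjusted edgeR p under 0.05 was found for 2463 of all 14081 genes. Cxcl10 lost its call with 1 library left out, at a log2 change and an edgeR adjusted p of -1.30 and 0.0555 without TKO replicate 2.

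To see where germ cells differed from neighbouring cells, the TKO minus Ctrl difference was compared between gates in 1 model per pair, with the library as a block. The effect differed for 26 of 13781 genes between germ and peg cells (0.189%), for 184 of 13134 between germ and placode cells (1.40%) and for 422 of 17657 between germ and interfollicular cells (2.39%). The peg sums of TKO held only 18 and 25 cells, and whether this set the count there was not tested. Cacng4, a regulatory subunit of AMPA receptors and calcium channels, had 13.3 and 12.1 CPM in Ctrl and 62.4 and 70.2 CPM in TKO in germ cells (log2 change 2.39, SE 0.15, edgeR adjusted p 0.000804). In CPM it had 5.62 and 3.76 in Ctrl and 5.75 and 4.07 in TKO in placode cells, 20.1 and 14.7 in Ctrl and 10.6 and 10.4 in TKO in peg cells and 6.87 and 5.81 in Ctrl and 1.69 and 2.3 in TKO in interfollicular cells. TKO exceeded Ctrl in germ cells and lay below it in interfollicular cells (log2 difference 4.08, edgeR adjusted p 0.000776).

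The effect on Ltb also differed from that in interfollicular cells, where it had 0.631 and 1.5 CPM in Ctrl and 1.55 and 1.07 CPM in TKO (log2 difference 2.94, edgeR adjusted p 0.0211). In placode cells Ltb had 38.1 and 19.9 CPM in Ctrl and 119 and 49.4 CPM in TKO (log2 difference 1.71, edgeR adjusted p 0.00615). Wnt3 was raised in germ cells and had 164 and 193 CPM in Ctrl and 198 and 179 CPM in TKO in placode cells (log2 difference 0.66, edgeR adjusted p 0.0495). In peg cells Wnt3 was higher in TKO too, at 24.9 and 28.3 CPM in Ctrl and 78.3 and 72.7 CPM in TKO. For Wnt10a the effect differed from that in interfollicular cells, where it had 64.4 and 74.8 in Ctrl and 60.3 and 57.3 in TKO (log2 difference 1.18, edgeR adjusted p 0.0077). Wnt10a was higher in TKO in placode cells too, at 34.3 and 45.7 CPM in Ctrl and 64.4 and 58.9 CPM in TKO. It was lower in TKO in peg cells, at 46.6 and 43.4 CPM in Ctrl and 38.1 and 27.7 CPM in TKO. Runx1 was lowered in germ cells, whereas placode cells had 24.3 and 23.1 CPM in Ctrl and 43.3 and 36.4 CPM in TKO (log2 difference -1.42, edgeR adjusted p 0.00562). Peg cells had less Runx1 in TKO, as germ cells did, at 709 and 846 CPM in Ctrl and 201 and 438 CPM in TKO. Edar, not called in germ cells, differed in effect from interfollicular cells (log2 difference 1.05, edgeR adjusted p 0.00465), where it had 81.3 and 73.6 in Ctrl and 50.4 and 52 in TKO. Edar was higher in TKO in peg cells, at 87.1 and 104 CPM in Ctrl and 165 and 279 CPM in TKO. In placode cells its groups overlapped, at 543 and 430 CPM in Ctrl and 362 and 592 CPM in TKO. The effect on Cdkn1a was smaller in germ than in placode cells (log2 difference -1.29, edgeR adjusted p 0.00978) and interfollicular cells (log2 difference -1.08, edgeR adjusted p 0.014). None of the genes of this paragraph was called in the comparison with peg cells, whose TKO sums held few cells. Gate genes were left out of this account, and whether each gate drew the same kind of cell in both genotypes was not tested.

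**Figure D5:**
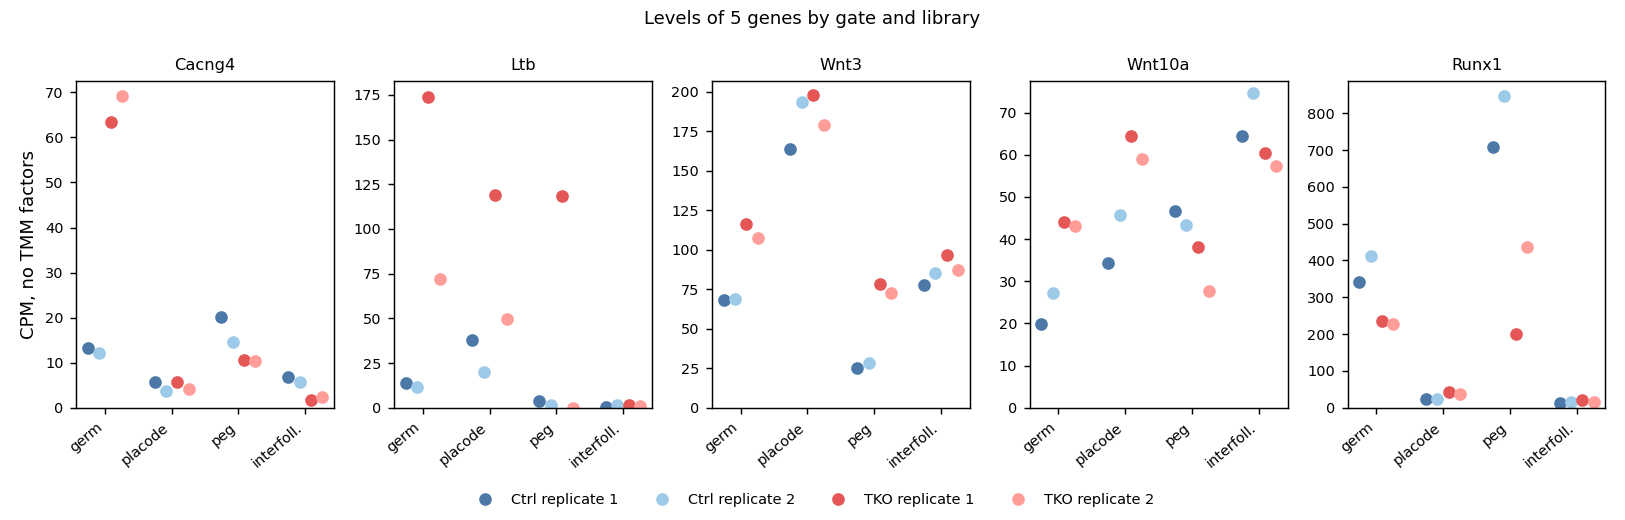
CPM (y axis) summed over the cells of each gate (x axis) for Cacng4, Ltb, Wnt3, Wnt10a and Runx1, with 1 point per library. Cacng4 is higher in both TKO libraries in the germ gate alone of the 4 gates, with few UMIs in placode and TKO peg cells. Ltb is near 0 in interfollicular cells of all libraries.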

How the data were processed

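For each library the authors deposited unnormalized UMI counts as a filtered 10x Genomics 3' v3 matrix, with lists of gene IDs and barcodes. The file headers name Cell Ranger 7.1.0 as the source of the matrices. The methods give a different release and the build GRCm39. The use of intronic reads was not given in the sources used here. The members and gene lists were chosen with earlier results of these data known. The matrices held 19789 barcodes with 309291898 UMIs.

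Cells are not replicates, so each gate's UMIs were summed within a library. The sums were tested with the quasi-likelihood method of edgeR 4.0.16 in R 4.3.3, using TMM factors and filterByExpr. Benjamini-Hochberg adjusted p-values are over all tested genes, and n = 2 libraries per genotype, each from 1 embryo. CPM are counts per 1000000 UMIs, TMM-scaled in the germ cell tests and in the results flagged for a closer look. Elsewhere, levels of the other gates, of Tll1, Frem1 and Dcn, sums of markers and levels split by probe UMIs are unscaled. SE is the log2 change divided by the square root of its F statistic. The effect in 2 gates was compared by an interaction term with library as a block. The fit was tested on simulated data over 14042 genes: of 100 genes changed 2-fold, 55 were called, and of 100 changed 4-fold, 97, with 7 false calls. Doublets were scored with Scrublet (scanpy 1.11.5) and left out only in an alternative, at a rate of 0.8% per 1000 barcodes. Shares with probe or cell cycle genes used cells thinned to 5000 UMIs, whereas the germ shares used all UMIs of a cell. Exact tests and intervals were from scipy 1.17.1.

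Named genes were the 12 raised and 12 lowered with the largest change among those called, with a mean of at least 10 CPM in the higher group and groups that did not overlap, 3 raised and 2 lowered genes with predicted names, up to 4 called per direction and 2 uncalled genes per list, and 4 per direction in each comparison of gates. The rule was applied again without the cells that carried RNA of other types, a choice made after seeing the data. Prdm1, Runx1, Irx2, Kremen2 and the list genes compared between gates fall outside it and were picked after their values were seen. Gene positions are from GENCODE vM39 (GRCm39) by ID without version. Alternatives were DESeq2 1.42.0, no TMM, no filter, each library left out, a replicate block, 5000 UMIs, doublets left out and stricter gates.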

Additional observations from a re-analysis of the deposited data

Results flagged for a closer look

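The genotype effect differed between germ and placode cells for 184 genes, between germ and peg cells for 26 and between germ and interfollicular cells for 422, each by a test of the difference itself. Log2 differences below are the effect in germ cells minus that in the other gate; where a group had 0 UMIs, the fitted difference depends on the prior count and is no bound.

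Against placode cells, Lama2, a laminin chain, had 12.2 and 11.4 CPM in Ctrl and 29.5 and 26.1 CPM in TKO in germ cells and 25 and 35.2 CPM in Ctrl and 10.6 and 5.15 CPM in TKO in placode cells (log2 difference 3.21, edgeR adjusted p 0.00131). Postn, a matrix protein, had 79.5 and 60.5 CPM in Ctrl and 61 and 106 CPM in TKO in germ cells and 379 and 409 CPM in Ctrl and 56.6 and 110.2 CPM in TKO in placode cells (log2 difference 2.52, edgeR adjusted p 4.82e-05), and the difference was 1.61 without cells carrying RNA of other types. S100a9, a calcium-binding alarmin, had 4.69 and 2.23 CPM in Ctrl and 51.7 and 3.05 CPM in TKO in germ cells and 49.3 and 65.9 CPM in Ctrl and 3.95 and 3.72 CPM in TKO in placode cells (log2 difference 6.57, edgeR adjusted p 0.0019). Its TKO germ level came mostly from TKO replicate 1, and the difference was 3.68 without cells carrying RNA of other types. The difference of Plagl1 was 2.38 (edgeR adjusted p 0.00978) and 0.17 without those cells. Lgr5, a stem cell marker and R-spondin receptor, had 99.4 and 108 CPM in Ctrl and 5.55 and 72.8 CPM in TKO in germ cells and 0 and 0 CPM in Ctrl and 0.608 and 3.44 CPM in TKO in placode cells (log2 difference -7.52, edgeR adjusted p 0.0351), with the 2 TKO germ values far apart. Dpp6 (-8.16), Rprm (-8.02) and Kcnd2 (-5.79) also had 0 UMIs in at least 1 Ctrl placode library.

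Against peg cells, Gria3 had a log2 difference of -6.20 and Kcnh7, a potassium channel, -3.34. Nectin3, an adhesion molecule, had 104 and 109 CPM in Ctrl and 80.8 and 105 CPM in TKO in germ cells and 34.7 and 37.4 CPM in Ctrl and 129 and 206 CPM in TKO in peg cells (log2 difference -2.41, edgeR adjusted p 0.00441). Golga7b had a difference of -2.16, Lrrc4c 4.37 and Thbs1, thrombospondin 1, 4.79. Without cells carrying RNA of other types, the difference of Thbs1 was no longer called (edgeR adjusted p 0.189). Col1a2 had a difference of 3.88 and Cdh11 of 4.48, which became 0.53 and -0.35 without those cells.

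Against interfollicular cells, Cacng4 had a difference of 4.08 and Gm6494 of 3.69. Erbb4, a receptor tyrosine kinase, had 21.8 and 26.6 CPM in Ctrl and 22.7 and 12.8 CPM in TKO in germ cells and 4.64 and 5.03 CPM in Ctrl and 0.22 and 0.211 CPM in TKO in interfollicular cells (log2 difference 3.997, edgeR adjusted p 0.00465). Sulf2, an extracellular sulfatase, had 30.4 and 30.7 CPM in Ctrl and 26.5 and 26 CPM in TKO in germ cells and 3.7 and 1.7 CPM in Ctrl and 45.8 and 28.1 CPM in TKO in interfollicular cells (log2 difference -3.95, edgeR adjusted p 0.00465). Tnfaip6 had a difference of 4.75, which became 0.74 without cells carrying RNA of other types. Rprm (-7.40), Ano4 (-4.996) and Gabrg3 (-8.19) were more negative in germ cells, and the interfollicular Gabrg3 level came from TKO replicate 1.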

How the results depend on the processing

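With no expression filter 1633 genes were called in germ cells, at 5000 UMIs per cell 298, with at least 5 UMIs per 10000 of the gate genes 343, and with cells carrying 2 markers of another type left out 180, against 555; that last alternative removed about as many cells as it kept. Leaving out 1 library gave 595 to 1012 calls (1012 without Ctrl replicate 1, 599 without TKO replicate 1). For the comparison of germ with placode cells (184) the same first 3 alternatives gave 561, 73 and 88, leaving out cells with RNA of other types 310, and leaving out 1 library 68 to 854 (102 and 68 without Ctrl replicates 1 and 2, 329 and 854 without TKO replicates 1 and 2). For germ against peg cells (26) they gave 285, 58 and 6, and 1 library less 38 to 601 (68 without Ctrl replicate 2, 146 and 601 without TKO replicates 1 and 2). For germ against interfollicular cells (422), 1362 without the filter and 264 at 5000 UMIs, and 1 library less 112 to 1165 (159 and 112 without Ctrl replicates 1 and 2, 1165 without TKO replicate 2). With 1 library left out its genotype has a lone library, assumed to vary like the other pair. The causes were not tested.

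The germ share of gated keratinocytes ranged from -6.19 to 1.75 percentage points with 1 library left out, and that of follicle cells from -11.9 to 5.61; with at least 5 UMIs per 10000 the latter was 3.78. The share with G2 and mitosis genes ranged from -0.056 to 1.96 and that with S phase genes from -3.87 to 0.671 with 1 library left out, and both were 0 with all UMIs. The S phase share was 0.750 with at least 5 genes and 11.5 with at least 10. Of the named genes, Col3a1 (-0.035), Col1a2 (-1.78) and Plagl1 (-0.29) turned negative without cells carrying RNA of other types; Col1a2 (-2.87) and Plagl1 (-0.23) did so with 2 markers as the limit. Without Ctrl replicate 1 or 2, or TKO replicate 1 or 2, respectively 18, 11, 6 and 16 uncalled named genes became called and 2, 7, 7 and 13 calls were lost.

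A replicate block was fitted although same-numbered libraries did not deviate together (r = 0.00848 across 11826 genes, which are not independent replicates). With the replicate block 615 genes were called, and the share differences were -2.22, -3.15, 0.954 and -1.60. Of the named genes, 9 uncalled ones became called with the block and 5 calls were lost. The depth of TKO replicate 1, 79 cells, limits what can be seen of weakly expressed genes.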

Other observations

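Within the TKO libraries, germ cells without cells carrying RNA of other types were divided by whether they held any UMI of the 10 probe genes at full depth. There were 16 and 31 cells with 0 probe UMIs and 58 and 160 with at least 1, and the former were shallower, with medians of 19895 and 17449 UMIs against 29830 and 25083. Creb5 had 73.2 and 54.2 CPM in cells with 0 probe UMIs and 54.1 and 104 in the others, against 429.3 and 429.2 in Ctrl germ cells. Adamts9 had 21.7 and 7.53 in the former and 4.59 and 32.6 in the latter, against 122 and 140 in Ctrl. These levels lay below Ctrl in both kinds of TKO cell. Of the 10 lowered genes examined, 8 lay below both Ctrl libraries in both kinds of TKO cell in both libraries, namely Creb5, Adamts9, Sox9, Irx1, Nlgn1, Ank, Barx2 and Plcl1, and Sox21 and Bmp4 did not. In TKO replicate 2, Sox21 had 119 CPM in cells with 0 probe UMIs and 41.6 in the others, against 93.0 and 111 in Ctrl, and Bmp4 had 49.7 and 16.1, against 56.3 and 44.6 in Ctrl. In TKO replicate 1 the order was opposite for Sox21 (21.7 and 51.8) and the 2 Bmp4 values were 13.6 and 15.1. Barx2 had 114 CPM in cells with 0 probe UMIs and 25.7 in the others in TKO replicate 1, and 0 and 57.9 in TKO replicate 2, and Plcl1 had 144 and 26.6 in TKO replicate 1 and 0 and 75.5 in TKO replicate 2. Tcfl5 had 2.71 and 6.03 CPM in cells with 0 probe UMIs and 25.2 and 37.3 in the others. The genes were chosen after values of these libraries were seen, and these are descriptions with no test, from few cells.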
